A study of Arabidopsis thaliana with 20 samples.

Results

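The difference in gene expression between dwarf and full-sized Arabidopsis thaliana plants was compared between a background with a PPD3 overexpression transgene and a descendant background labelled null for it. The samples of the 4 groups that enter this comparison were 14 of the 20 in the series. With the transgene (T+), 3 samples came from dwarf and 3 from normal plants. In the null progeny (Gen2), 5 samples came from dwarf and 3 from large plants. The design text of the series gives 3 samples per group, and all 5 labelled Gen2 dwarf were used here. Gen2 descended from Gen1, whose plants were siblings of T+. A group of 3 Gen1 dwarf samples and a group of 3 wild-type (WT) samples stand outside the comparison. Their levels serve as side values, but all 20 samples entered the fit, and so its filter, scaling and estimate of spread. Every group was labelled Col-0 by source name, although the ecotype label of 1 WT sample reads Col-1, and every sample was aboveground tissue of bolting plants grown at 22 and 20 °C with a 12-h photoperiod. All groups other than WT share descent from the transgenic line, so Gen2 dwarf and Gen2 large plants both come from ancestry with the transgene. No source used here gives the promoter of the construct, the number of independent lines, the age of the plants or how many plants made up a sample. The full-sized plants are called normal within T+ and large within Gen2, so the 2 dwarf effects do not have the same comparator. T+ and Gen2 differ in generation as well as in the transgene, so the parts of these in a difference between the 2 effects cannot be told apart. The labels call the samples biological replicates without saying whether they were separately grown plants, so each p-value reflects the spread among the samples at hand.

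PPD3 is a PsbP-domain protein of the plastid lumen, and has been linked to sensory plastids, a plastid type of epidermal and vascular cells that also holds the DNA maintenance protein MSH1. Shoot epidermis makes the cuticle, a layer of cutin and waxes, and accumulates anthocyanins under stress. BTB-TAZ scaffold proteins such as BT2, nitrate assimilation enzymes and genes repressed by sugar report the nutrient and energy state of leaf cells. WRKY and ethylene response factors are early components of defence signalling, and many respond to touch, wounding and pathogens within a short time.

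Sequencing gave 45728485 to 112520877 gene counts per sample in the 14 samples. Levels are given as CPM, a gene's count relative to the scaled library size, and differences as log2 values with standard errors (SE). A count of 0 allows 0.0267 to 0.0656 CPM in 1 sample, a limit that covers counting error only. PPD3 (AT1G76450, annotated as a PsbP family protein and overlapping AT1G76460) had 747, 381 and 647 CPM in T+ dwarf and 812, 636 and 652 CPM in T+ normal samples. It had 93.2, 114, 101, 105 and 121 CPM in Gen2 dwarf and 133, 148 and 147 CPM in Gen2 large samples, against 118, 93.9 and 125 CPM in WT. Both T+ groups therefore stood above all samples of the null groups. T+ normal 1 stood apart from all other samples in a principal component analysis, at −68.31 on the first component (25.3% of variance) and −57.12 on the second (15.5%), with 21742 genes detected, the lowest number of any sample. Floral organ markers summed to a median of 14.5 CPM in T+ dwarf, 13.4 in T+ normal, 11.5 in Gen2 dwarf and 16.6 in Gen2 large samples, with 3, 5, 7 and 7 of 19 markers at 0 in every sample. Root markers summed to 37.3 to 55.5 CPM in T+ dwarf, 25.7 to 41.8 in T+ normal, 32.2 to 39.8 in Gen2 dwarf and 36.7 to 42.8 in Gen2 large samples, with 4 to 6 of the 10 markers at 0 in every sample of a group. The part of other tissues in the results below was not tested.

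The interaction, defined as the dwarf effect within T+ minus the dwarf effect within Gen2, was called for 142 of 21703 tested genes (0.654%) at an adjusted p under 0.05 in edgeR's quasi-likelihood test. It was above 0 for 55 genes (0.253%) and below 0 for 87 (0.401%). An unadjusted p under 0.05 was reached by 2726 genes. In RNA of whole shoots, fewer cells of a type and less RNA per cell cannot be told apart. The dwarf effect itself was called for 3255 genes within T+ (15.0%), 1565 higher in dwarf plants (7.21%) and 1690 lower (7.79%). Within Gen2 it was called for 2920 genes (13.5%), 1881 higher (8.67%) and 1039 lower (4.79%). Of the 1154 genes called in both backgrounds, which are 35.5% of the T+ calls and 39.5% of the Gen2 calls, 1127 had the same sign and 27 had opposite signs. Over all tested genes the 2 effects had the same sign for 69.6%, with a Pearson correlation of 0.42 across genes, which are not independent replicates. The 2 effects share no samples.

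No gene with a called interaction had effects that were called in both backgrounds in the same direction. The 142 genes fell into 27 (0.124% of tested genes) whose effects were called in both backgrounds with opposite signs, 66 called within T+ only and 49 called within Gen2 only. The reversed genes were 9 with a positive and 18 with a negative interaction. In the other 2 classes the estimates also had opposite signs in 59 of 66 and 43 of 49 genes, but the second effect did not pass its own test. Over all tested genes the signs were opposite for 6595 of 21703. The 55 positive interactions had a median effect of 1.04 within T+ and −0.59 within Gen2. For the 87 negative ones these medians were −0.99 and 0.69, beside 0.01 and 0 over all tested genes. The T+ samples of dwarf and normal plants did not overlap for 110 of the 142 genes (77.5%), beside 33.0% of all tested genes. The Gen2 samples of dwarf and large plants did not overlap for 77 (54.2%), beside 25.6% of all tested genes. Both shares, the opposite signs and the medians on opposite sides of 0 follow in part from the choice of the genes by this contrast.

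**Figure D1:**
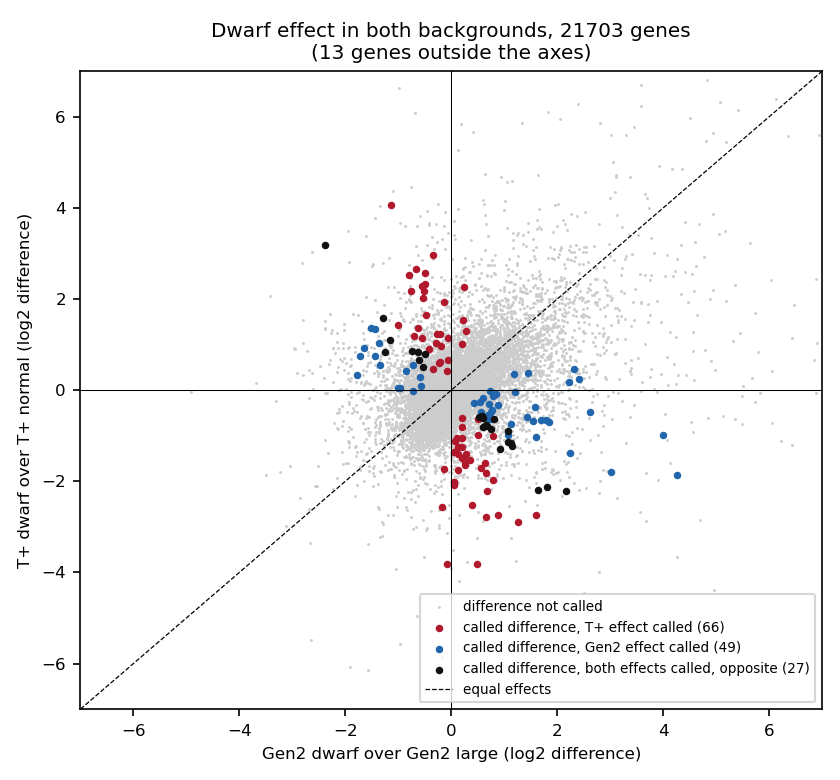
Each point is 1 of 21703 genes, with the log2 difference of Gen2 dwarf over Gen2 large plants on the x axis and that of T+ dwarf over T+ normal plants on the y axis, and 13 genes lie outside the axes. Genes with a called interaction (66 red, 49 blue, 27 black) lie away from the dashed line of equal effects, mostly in the quadrants where the effects have opposite signs.

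The number of calls depended on single samples. Leaving out 1 sample gave 32, 25 and 136 interaction calls without T+ dwarf 1, 2 and 3, and 18, 191 and 47 without T+ normal 1, 2 and 3. It gave 291, 200, 51, 121 and 73 without Gen2 dwarf 1 to 5, and 24, 16 and 20 without Gen2 large 1, 2 and 3. The 18 calls without T+ normal 1 were all among the 142. Only 9 genes were called in each of these 14 refits. They were CER1, WSD1 and CYP77A4 among the positive interactions, and AT2G20670, AT4G32480, AT3G07350, GDH3, AT1G04770 and AT3G18773 among the negative ones. For genes outside these 9, a call given below was lost without at least 1 sample. DESeq2 called 646 genes, a block for replicate numbers left 93, and Gen2 dwarf samples 1 to 3 alone left 35.

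The groups outside the contrast showed where the full-sized plants stood. The mean of WT lay between those of T+ normal and Gen2 large plants for 68 of the 87 negative interactions (78.2%), beside 30.1% of all tested genes, and for 25 of the 55 positive ones (45.5%). It lay between T+ dwarf and Gen2 dwarf plants for 44 of the 55 positive interactions (80.0%), beside 28.6% of all tested genes, and for 60 of the 87 negative ones (69.0%). Among the 4 groups, T+ normal was the one farthest from WT on the log2 scale for 36 of the 55 positive (65.5%) and 40 of the 87 negative interactions (46.0%), beside 28.3% of all tested genes. Of the 87 negative interactions, T+ normal had the highest mean of the 4 groups in 58 (66.7%) and Gen2 large the lowest in 58 (66.7%), beside 25.2% and 25.8% of all tested genes. Of the 55 positive ones, T+ dwarf had the highest mean in 39 (70.9%) and T+ normal the lowest in 37 (67.3%), beside 26.0% and 27.4% of all tested genes. T+ normal 1 was the lowest of the 3 T+ normal samples for 39 of the 55 positive interactions (70.9%), beside 37.1% of all tested genes. It was the highest of the 3 for 33 of the 87 negative ones (37.9%), beside 34.8% of all tested genes. These counts describe genes chosen for their differences among the 4 groups and carry no test. In Gen1 dwarf plants the mean was above WT for 33 of the 55 positive (60%) and 40 of the 87 negative interactions (46.0%), beside 50.2% of all tested genes.

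Several energy- and nutrient-responsive genes had called interactions below 0, several of them with the highest levels in T+ normal plants. List counts here and below stand beside 0.253% of all tested genes called above 0 and 0.401% called below 0 in the interaction. For the dwarf effects these shares were 7.21% higher and 7.79% lower within T+, and 8.67% higher and 4.79% lower within Gen2. The lists were chosen with earlier results of these data known, so an excess over these shares carries no test. BT2 and BT5, both scaffold proteins with BTB and TAZ domains, were the called members of the 5 BTB-TAZ genes. BT2 had 20.5, 19.5 and 14.2 CPM in T+ dwarf and 282, 154 and 326 CPM in T+ normal samples. In Gen2 it had 16.7, 30.8, 73.2, 26.9 and 65.1 CPM in dwarf and 45.6, 41.4 and 47.6 CPM in large plants. The T+ groups did not overlap, and the Gen2 large samples lay within the range of the Gen2 dwarf samples. Its interaction was −3.74 (SE 0.68, edgeR adjusted p = 0.0239), from an effect of −3.82 within T+ and −0.07 within Gen2. BT5 had 5.66, 3.28 and 4.26 CPM in T+ dwarf and 34.3, 23.5 and 40.9 CPM in T+ normal samples, against 7.92, 8.86, 14.9, 5.3 and 22.5 CPM in Gen2 dwarf and 5.49, 5.08 and 4.29 CPM in Gen2 large samples. Its interaction was −4.17 (SE 0.73, edgeR adjusted p = 0.0212). WT samples had 32, 21.7 and 60.9 CPM of BT2 and 5.31, 4.4 and 13.2 CPM of BT5, so T+ normal plants stood above WT in both genes. BT1, BT3 and BT4 were not called, and the family's median interaction was −0.44. The number of called members fell to 1 without T+ normal 3 and to 0 without T+ dwarf 1, T+ dwarf 2, T+ normal 1 or any 1 of the Gen2 large samples.

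Of 31 sugar-starvation and low-energy genes, 23 had an estimate below 0 and 2 were called, with a median of −0.52 beside −0.01 over all tested genes. The list held 4 higher and 7 lower calls within T+ and 9 higher and 0 lower within Gen2. AT2G20670, a gene with a DUF506 product, had 2.61, 1.73 and 1.82 CPM in T+ dwarf and 24.2, 15.8 and 46.4 CPM in T+ normal samples. It had 2.54, 3.44, 6.88, 4.4 and 4.96 CPM in Gen2 dwarf and 3.09, 3.39 and 3.04 CPM in Gen2 large samples, and 4.02, 2.2 and 5.2 CPM in WT. T+ normal stood alone, at several times the level of every other group, and the interaction of −4.30 (SE 0.53, edgeR adjusted p = 0.00196) was called in each of the 14 refits. AT1G80440, a kelch-repeat protein gene, reversed. It had 8.17, 6.9 and 6.75 CPM in T+ dwarf and 31.4, 20.9 and 46.9 CPM in T+ normal samples (effect −2.18, SE 0.46). In Gen2 it had 4.17, 6.38, 18.3, 10.2 and 11 CPM in dwarf and 3.51, 2.91 and 3.32 CPM in large plants (effect 1.63, SE 0.43). Neither pair of groups overlapped, and its interaction of −3.81 had an edgeR adjusted p of 0.0165. The list had 1 call without T+ dwarf 2 or any 1 of the Gen2 large samples, and 4 without T+ normal 2 or Gen2 dwarf 1. Of 28 starch genes only BMY3 (also named BAM9), annotated as a beta-amylase gene, was called. It had 11.1, 11.7 and 11.2 CPM in T+ dwarf and 20.3, 19.8 and 19.3 CPM in T+ normal samples. Its 5 Gen2 dwarf samples, at 9.54 to 13.1 CPM, overlapped the 10 to 10.8 CPM of Gen2 large samples, and the interaction was −1.01 (SE 0.2, edgeR adjusted p = 0.0286), called in 6 of the 14 refits. The starch list's median interaction was −0.05, with 14 estimates on each side of 0.

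Nitrogen genes had the most called members among the lists with negative interactions, 4 of 28, beside 0.401% of all tested genes. The list had 24 estimates below 0 and a median of −0.77. Within T+ the list held 4 higher and 8 lower calls, and within Gen2 8 higher and 0 lower. NIA1, a nitrate reductase gene, reversed at moderate size. It had 45.9, 30.1 and 44.5 CPM in T+ dwarf and 70.0, 76.2 and 63.8 CPM in T+ normal samples, against 69.2, 51.5, 70.9, 65.7 and 43.1 CPM in Gen2 dwarf and 38.3, 32 and 48.1 CPM in Gen2 large samples. The T+ groups were apart, the Gen2 groups overlapped, and the interaction was −1.41 (SE 0.26, edgeR adjusted p = 0.021). GDH3, a glutamate dehydrogenase gene, had 0.845, 1.25 and 1.21 CPM in T+ dwarf and 1.86, 1.81 and 1.69 CPM in T+ normal samples. Its levels were 2.86, 4.05, 3.22, 4.64 and 4.34 CPM in Gen2 dwarf and 1.06, 1.04 and 1.06 CPM in Gen2 large samples. Every Gen2 dwarf sample stood above all samples of the other 3 groups of the contrast, and the interaction of −2.55 (SE 0.38, edgeR adjusted p = 0.00771) held in each refit. PTR3, a peptide transporter gene, was called within Gen2 only (2.42, SE 0.31), with 7.51 to 23.0 CPM in Gen2 dwarf and 2.49 to 3.75 CPM in Gen2 large samples, and its interaction was −2.16 (edgeR adjusted p = 0.031). LBD38, a repressor of nitrogen-responsive and anthocyanin genes, was called within T+ only, at 9.65, 9.76 and 8.14 CPM in T+ dwarf and 16.4, 17.9 and 31.4 CPM in T+ normal samples, with an interaction of −1.46 (SE 0.33, edgeR adjusted p = 0.0461). The list's count was 1 without T+ dwarf 2, T+ normal 1, Gen2 large 1 or Gen2 large 2, 2 without T+ dwarf 1, T+ normal 3, Gen2 dwarf 3 or Gen2 large 3, and 6 without Gen2 dwarf 1.

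Among 19 sulfur-deficiency genes, 15 had estimates below 0, the median was −0.81 and AT1G04770, a tetratricopeptide-repeat gene, was called. It had 26.5, 25.1 and 20.9 CPM in T+ dwarf and 79.3, 53.0 and 72.9 CPM in T+ normal samples. The Gen2 dwarf samples had 21.8, 26.8, 27.9, 23.3 and 34.0 CPM, the Gen2 large samples 23.7, 23.2 and 22.8 CPM and WT 26.4, 30.9 and 32.1 CPM. T+ normal was again the group apart, with an interaction of −1.70 (SE 0.21, edgeR adjusted p = 0.00196) in all 14 refits. The list's count was 4 without Gen2 dwarf 1 and 2 without T+ normal 2. SULTR3;5, a sulfate transporter gene outside the list, had an interaction of −2.47 (SE 0.47, edgeR adjusted p = 0.0239), with 2.63, 2.28 and 1.96 CPM in T+ dwarf and 5.59, 8.26 and 10.3 CPM in T+ normal samples. In the phosphate list 17 of 20 estimates were below 0 and PHO1;H1, a phosphate exporter homologue, was called at −1.25 (SE 0.24, edgeR adjusted p = 0.0239). It changed only within Gen2 by its own test, at 12.9 to 18.0 CPM in dwarf and 7.8, 7.31 and 6.39 CPM in large plants, while T+ dwarf (12.1, 8.18 and 8.38 CPM) and T+ normal samples (10.6, 9.92 and 9.02 CPM) overlapped. The phosphate list had 11 higher calls within Gen2 and 5 within T+.

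**Figure D2:**
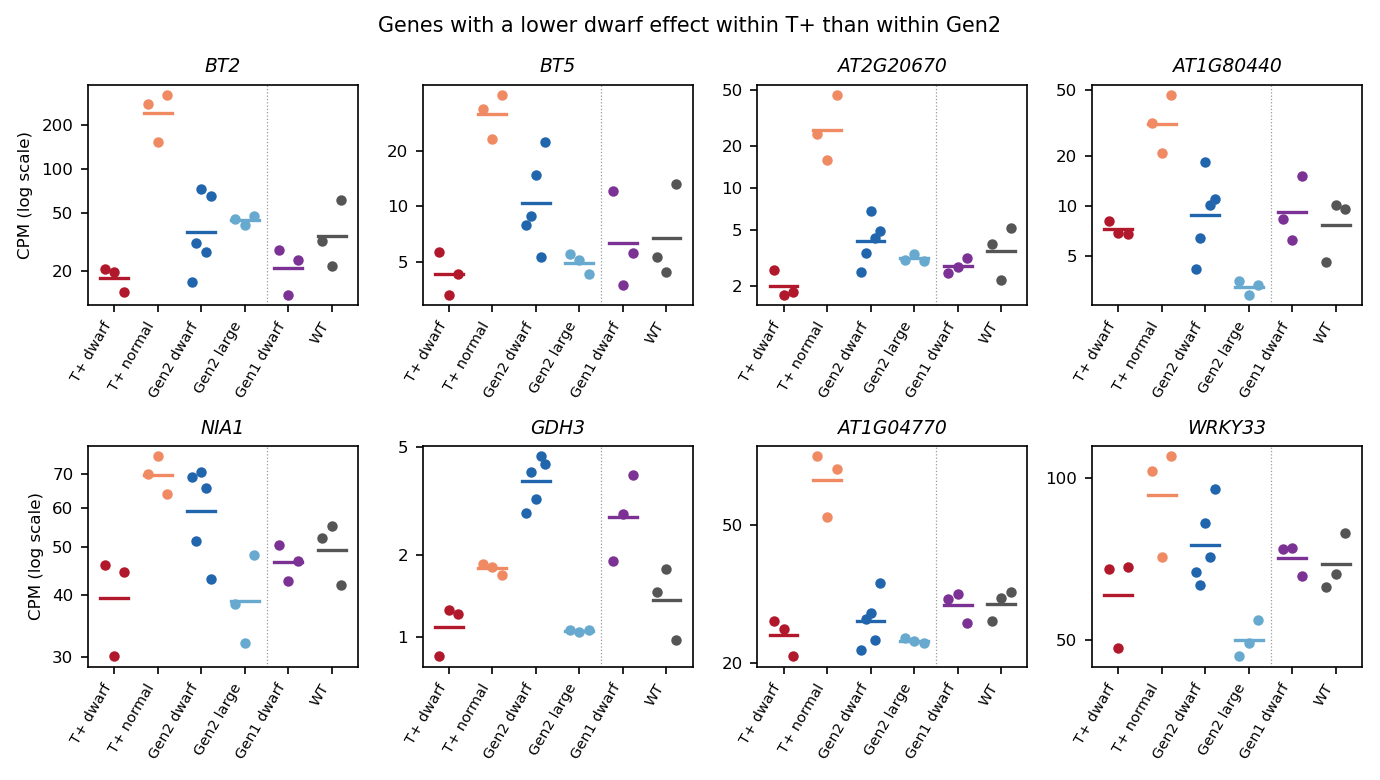
CPM of each sample on a log axis, with bars at geometric means, for 8 genes with a negative interaction in T+ dwarf, T+ normal, Gen2 dwarf, Gen2 large, Gen1 dwarf and WT plants. T+ normal samples stand highest for BT2 (154 to 326 CPM), AT2G20670 (15.8 to 46.4) and AT1G04770 (53.0 to 79.3). For GDH3 the Gen2 dwarf samples (2.86 to 4.64) lie above those of the other groups in the contrast, while Gen1 dwarf samples (1.9 to 3.94) overlap them.

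Defence transcription factors with a called interaction were higher in dwarf than in large plants of Gen2, by a margin that T+ plants did not show. WRKY40, a WRKY factor induced by pathogen patterns, had 17.7, 13.4 and 19.2 CPM in T+ dwarf and 15.5, 9.63 and 19.6 CPM in T+ normal samples. It had 28.4, 19.1, 29.7, 25.2 and 38.0 CPM in Gen2 dwarf and 7.9, 5.35 and 4.69 CPM in Gen2 large samples. The T+ groups overlapped and the Gen2 groups were well apart, with an effect of 2.23 (SE 0.24) within Gen2, 0.17 (SE 0.25) within T+ and an interaction of −2.06 (SE 0.34, edgeR adjusted p = 0.0152). WRKY33, needed for camalexin synthesis, reversed. It had 67.9, 48.3 and 68.3 CPM in T+ dwarf and 103, 71.4 and 110 CPM in T+ normal samples, against 66.9, 63.4, 82.7, 71.4 and 95.7 CPM in Gen2 dwarf and 46.6, 49.4 and 54.4 CPM in Gen2 large samples. Neither pair overlapped, and the interaction was −1.22 (SE 0.23, edgeR adjusted p = 0.0236). RRTF1, an ethylene response factor of redox signalling, had the largest negative interaction of the 142 genes, −6.11 (SE 1.25, edgeR adjusted p = 0.0343), but at low levels. Its samples stood at 0.306, 0.506 and 0.152 CPM in T+ dwarf and 1.07, 0.234 and 2.15 CPM in T+ normal plants. They stood at 1.89, 0.656, 2.78, 0.849 and 8.67 CPM in Gen2 dwarf and 0.148, 0.0589 and 0.278 CPM in Gen2 large plants, with Gen2 dwarf 5 far above the rest, and the call held in 5 of the 14 refits. WT samples had 14.9, 16.6 and 19.9 CPM of WRKY40, and Gen1 dwarf samples 36.1, 37.6 and 37.0 CPM. For WRKY33, WT samples had 62.8, 66.4 and 79.2 CPM. Among the groups of the contrast, Gen2 large was the one farthest from WT on the log2 scale for WRKY40, WRKY33 and RRTF1.

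Pattern-triggered immunity genes had 2 calls in 20 (WRKY33 and WRKY40), both below 0, beside 0.401% of all tested genes. They had 19 estimates below 0 and a median interaction of −0.57. Within Gen2 13 of them were higher in dwarf plants, and within T+ 0 were higher and 1 was lower. Their count was 4 without T+ dwarf 3 or Gen2 dwarf 1, 1 without T+ dwarf 2, T+ normal 1, T+ normal 3 or Gen2 large 1, and 0 without Gen2 large 2 or Gen2 large 3. Ethylene response factors had 1 call in 20 (RRTF1) and a median of −0.98, with 7 higher calls within Gen2 and 0 within T+. Salicylic acid genes had 1 call in 29 and a median of −0.55, with 17 higher calls within Gen2 and 9 higher and 1 lower within T+. The called member was NPR3, a salicylic acid receptor gene, with 36.5, 41.9 and 52.8 CPM in T+ dwarf and 69.1, 54.0 and 59.5 CPM in T+ normal samples. In Gen2 NPR3 had 50 to 71.9 CPM in dwarf and 37.5 to 41.5 CPM in large plants, and its interaction was −1.05 (SE 0.23, edgeR adjusted p = 0.0411), called in 4 of the 14 refits.

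HSPRO2 and OXS3 were among the largest negative interactions. HSPRO2, annotated as an orthologue of a sugar beet nematode-resistance gene, had 18.5, 13.5 and 21.4 CPM in T+ dwarf and 73.5, 46.8 and 126 CPM in T+ normal samples. It had 22.1, 22.4, 101, 29.5 and 123 CPM in Gen2 dwarf and 12.5, 12.5 and 14.8 CPM in Gen2 large samples. The reversal was called in both backgrounds, with effects of −2.21 (SE 0.66) within T+ and 2.18 (SE 0.62) within Gen2, and an interaction of −4.38 (edgeR adjusted p = 0.0411). OXS3, a gene of oxidative stress tolerance, had 11.3, 9.94 and 7.53 CPM in T+ dwarf and 84.5, 36.5 and 70.0 CPM in T+ normal samples, while its Gen2 dwarf (6.7 to 25.3 CPM) and Gen2 large samples (6.5 to 11 CPM) overlapped. Its interaction was −3.62 (SE 0.6, edgeR adjusted p = 0.0165). SZF1, a zinc finger gene of the salt response, SYP122, a syntaxin of defence-related secretion, and RAV1, an AP2/B3 factor gene, were picked out after their values were seen and all reversed. Their interactions were −2.29, −1.97 and −1.60, with effects within T+ of −1.17, −0.89 and −0.86 and within Gen2 of 1.13, 1.07 and 0.74.

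Glucosinolate and camalexin genes had 2 calls in 32, both negative, beside 0.401% of all tested genes. They had 29 estimates below 0 and a median interaction of −0.57. Within Gen2 19 were higher in dwarf plants, and within T+ 4 were higher and 1 was lower. IMD1, an isopropylmalate dehydrogenase of leucine and methionine-derived glucosinolate synthesis, reversed, at 191, 180 and 124 CPM in T+ dwarf and 255, 249 and 234 CPM in T+ normal samples. In Gen2 it had 290, 297, 249, 307 and 347 CPM in dwarf and 200, 209 and 200 CPM in large plants, and its interaction was −1.13 (SE 0.24, edgeR adjusted p = 0.0402). Neither pair of groups overlapped. FMO GS-OX1, an enzyme of glucosinolate side-chain oxidation, changed only within Gen2 by its own test (0.85, SE 0.14), with an interaction of −0.94 (edgeR adjusted p = 0.0461). ESP, the epithiospecifier protein that steers glucosinolate breakdown towards nitriles, went the other way. It had 39.2, 39.9 and 31.9 CPM in T+ dwarf and 25.5, 28.2 and 28.8 CPM in T+ normal samples, against 17.5 to 28.8 CPM in Gen2 dwarf and 34.1, 36.9 and 47.5 CPM in Gen2 large samples. Its interaction of 1.27 (SE 0.23, edgeR adjusted p = 0.0192) was named after its values were seen. Both list calls were lost without T+ dwarf 1, 2 or 3, T+ normal 1 or 3, Gen2 dwarf 4 or 5, or any 1 of the Gen2 large samples, and 1 call was left without T+ normal 2 or Gen2 dwarf 3.

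Cuticle genes with a called interaction all had a more positive dwarf effect within T+ than within Gen2. Of 22 wax and cutin genes, 4 had a called interaction, all positive, beside 0.253% of all tested genes. The list had 21 estimates above 0 and a median of 0.84. Within T+ 11 were higher in dwarf plants and 0 lower, and within Gen2 0 were higher and 4 lower. CER1, required for alkane synthesis, the main wax class of Arabidopsis stems and leaves, had 111, 99.1 and 135 CPM in T+ dwarf and 21.4, 52.2 and 41.9 CPM in T+ normal samples. It had 44.3, 40.2, 48.7, 26.9 and 42.6 CPM in Gen2 dwarf and 105, 82.2 and 110 CPM in Gen2 large samples. WT samples had 47.7, 62.6 and 100 CPM and Gen1 dwarf samples 58.1, 93.4 and 73.4 CPM, and the means of both lay between the high and the low pair. CER1 reversed, with effects of 1.58 (SE 0.31) within T+ and −1.29 (SE 0.26) within Gen2, and its interaction of 2.87 (SE 0.4, edgeR adjusted p = 0.00641) was called in all 14 refits.

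WSD1, a wax ester synthase gene, had 5.81, 6.17 and 16.5 CPM in T+ dwarf and 1.18, 2.14 and 2.31 CPM in T+ normal samples. In Gen2 it had 2.64, 3.41, 3.05, 1.73 and 3.67 CPM in dwarf and 4.16, 5.06 and 3.09 CPM in large plants. T+ dwarf stood above all other samples, and the interaction was 2.83 (SE 0.47, edgeR adjusted p = 0.0152). MYB106, a MYB factor of cuticle and trichome development, had 8.83, 10.9 and 13.2 CPM in T+ dwarf and 3.35, 7.72 and 8.42 CPM in T+ normal samples. It had 4.88, 4.77, 6.45, 2.86 and 5.12 CPM in Gen2 dwarf and 18.7, 11.6 and 17.5 CPM in Gen2 large samples. The Gen2 effect (−1.72, SE 0.28) was called and the T+ effect of 0.76 was not, with an interaction of 2.48 (SE 0.43, edgeR adjusted p = 0.0177). KCS2, an enzyme of very-long-chain fatty acid elongation, was called within T+ only, at 5.76, 4.03 and 6.45 CPM in T+ dwarf and 1.27, 1.71 and 1.26 CPM in T+ normal samples, with an interaction of 2.06 (SE 0.47, edgeR adjusted p = 0.0461). The wax list had 2 calls without Gen2 large 1 or Gen2 large 3, and 3 to 5 in the other refits.

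CYP77A4, a cytochrome P450 that oxidises fatty acids, reversed and was called in all 14 refits. It had 6.1, 5.41 and 5.94 CPM in T+ dwarf and 1.93, 3.77 and 4.0 CPM in T+ normal samples, against 2.87, 2.49, 3.23, 2.1 and 3.25 CPM in Gen2 dwarf and 7.2, 5.07 and 7.61 CPM in Gen2 large samples. Its interaction was 2.09 (SE 0.34, edgeR adjusted p = 0.0152), and neither pair of groups overlapped. KCS3 and KCR2, annotated as a 3-ketoacyl-CoA synthase and a beta-ketoacyl reductase, were named after their values were seen. So were SHN3, an activator of cuticle genes, and HDG11, a homeodomain factor of the epidermis. The interactions of KCS3, KCR2, SHN3 and HDG11 were 1.16, 1.71, 1.90 and 1.90. KCS3, KCR2 and SHN3 were higher in T+ dwarf than in T+ normal plants by their own tests (0.97, 1.16 and 1.19), and HDG11 was lower in Gen2 dwarf than in Gen2 large plants (−1.34, SE 0.28). GLC, an acyltransferase gene, and ABCB13, an ABC transporter gene, were called within Gen2 only. GLC had 8.56, 11.8 and 15.4 CPM in T+ dwarf and 2.73, 6.49 and 9.56 CPM in T+ normal samples, against 5.26, 4.97, 5.72, 2.91 and 5.45 CPM in Gen2 dwarf and 17.2, 13.6 and 15.2 CPM in Gen2 large samples. Its interaction was 2.58 and that of ABCB13 was 2.78.

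Anthocyanin genes had more called interactions than any other list, 8 of 28, beside 0.654% of all tested genes. The calls were 7 positive and 1 negative, and the list had 26 estimates above 0 and a median of 1.43. Within T+ 14 of the 28 genes were higher in dwarf plants and 1 lower, and within Gen2 0 were higher and 1 lower. PAP1, a MYB activator of anthocyanin synthesis, had 70.0, 68.3 and 48.3 CPM in T+ dwarf and 13.5, 15.0 and 10.5 CPM in T+ normal samples. It had 40.5, 38.3, 20.9, 32.7 and 32.6 CPM in Gen2 dwarf and 29.1, 32.2 and 22.7 CPM in Gen2 large samples, and 38.1, 45.8 and 53.2 CPM in WT. T+ normal was the low group, the Gen2 groups overlapped, and the interaction was 2.02 (SE 0.43, edgeR adjusted p = 0.0437). MYBL2, a MYB repressor of the same pathway, was the member with a negative interaction, −1.48 (SE 0.31, edgeR adjusted p = 0.0364). It had 10.7, 8.52 and 11.6 CPM in T+ dwarf and 23.8, 16.8 and 20.1 CPM in T+ normal samples, and its Gen2 dwarf (5.52 to 12.0 CPM) and Gen2 large samples (6.3 to 7.32 CPM) overlapped.

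The called enzyme and transport genes of the list had effects above 0 within T+, as PAP1 did, and estimates below 0 within Gen2 that were not called. DFR, dihydroflavonol reductase, had 62.6, 72.7 and 53.3 CPM in T+ dwarf and 6.67, 11.4 and 20.6 CPM in T+ normal samples. In Gen2 it had 55.8, 49.6, 24.6, 19.7 and 16.9 CPM in dwarf and 62.3, 46.8 and 37.7 CPM in large plants, against 41.8, 69.8 and 55.9 CPM in WT. T+ normal was low, and the WT mean (55.8 CPM) lay between those of Gen2 large (48.9 CPM) and T+ dwarf plants (62.9 CPM). The interaction was 2.84 (SE 0.59, edgeR adjusted p = 0.0424). UF3GT, a flavonoid glycosyltransferase, had 18.0 to 33.2 CPM in T+ dwarf and 2.02, 4.69 and 4.9 CPM in T+ normal samples, and its 5 Gen2 dwarf samples (6.64 to 20.9 CPM) overlapped Gen2 large (14.2 to 18.3 CPM). AT4G14090, a glycosyltransferase gene, had 50, 55.7 and 39.6 CPM in T+ dwarf and 8.28, 11.2 and 12.6 CPM in T+ normal samples, and 13 to 34.2 CPM in Gen2 dwarf and 28.2 to 39.0 CPM in Gen2 large samples. The interactions of UF3GT and AT4G14090 were 3.07 (SE 0.59, edgeR adjusted p = 0.0288) and 2.69 (SE 0.46, edgeR adjusted p = 0.0181). TT7, the flavonoid 3′-hydroxylase, LDOX, leucoanthocyanidin dioxygenase, and GSTF12, which carries anthocyanins to the vacuole, had interactions of 2.95, 2.56 and 2.44. All 8 called members had T+ normal as the group farthest from WT among the 4 groups. AT1G03940 and AT1G03495, acyltransferase genes outside the list, had interactions of 3.34 and 3.31. AT1G03940 had 15.1, 15.3 and 11.1 CPM in T+ dwarf and 1.62, 3.14 and 2.4 CPM in T+ normal samples, against 3.46 to 9.73 CPM in Gen2 dwarf and 8.67 to 12.8 CPM in Gen2 large samples. The list's calls rested on few samples: they numbered 0 without T+ normal 1, T+ dwarf 2, Gen2 large 1 or Gen2 large 2, 1 without T+ dwarf 1, Gen2 dwarf 3 or Gen2 large 3, 2 without Gen2 dwarf 5, 3 without T+ normal 3, 6 without T+ dwarf 3, T+ normal 2 or Gen2 dwarf 4, 11 without Gen2 dwarf 1 and 14 without Gen2 dwarf 2. In Gen2 dwarf plants, samples 1 and 2 stood above samples 3, 4 and 5 for DFR, UF3GT and LDOX.

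**Figure D3:**
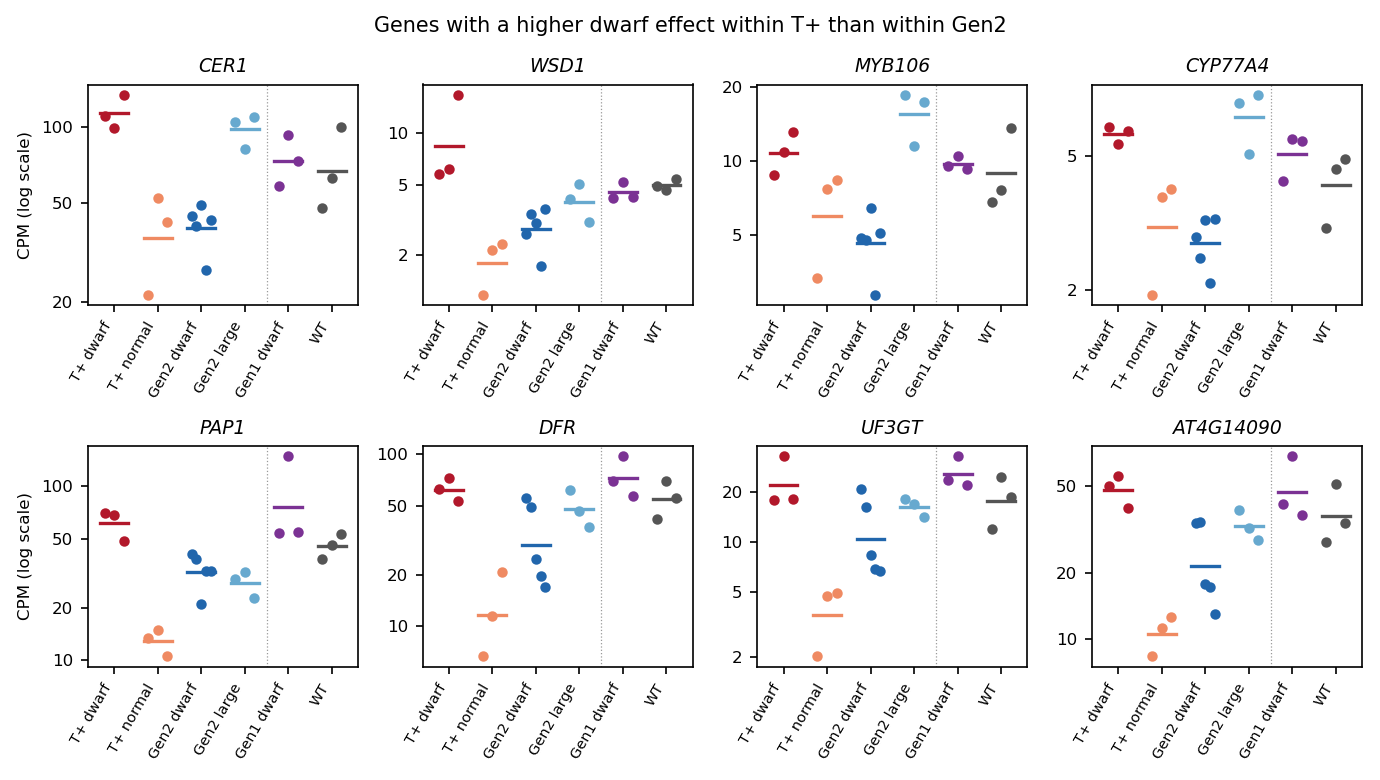
CPM of each sample on a log axis, with bars at geometric means, for 8 genes with a positive interaction in T+ dwarf, T+ normal, Gen2 dwarf, Gen2 large, Gen1 dwarf and WT plants. CER1, MYB106 and CYP77A4 are higher in T+ dwarf and Gen2 large samples (99.1 to 135 and 82.2 to 110 CPM for CER1) than in T+ normal and Gen2 dwarf samples. The T+ dwarf samples of MYB106 (8.83 to 13.2 CPM) lie within the range of WT (6.83 to 13.7 CPM). PAP1, DFR, UF3GT and AT4G14090 are low in T+ normal samples (10.5 to 15.0 CPM for PAP1).

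Among the reversed genes, several have no established role that the annotation names. AT4G32480, a DUF506 gene, had 4.21, 3.71 and 2.89 CPM in T+ dwarf and 7.79, 5.82 and 11.5 CPM in T+ normal samples, against 4.04, 4.02, 6.05, 4.78 and 4.33 CPM in Gen2 dwarf and 2.32, 2.01 and 1.96 CPM in Gen2 large samples. Its interaction was −2.36 (SE 0.33, edgeR adjusted p = 0.00641), and both pairs of groups were apart. AT2G24550, AT3G48640, AT5G44568 and AT3G04640 had reversed effects with interactions of −2.22, −2.20, −1.44 and −3.93. UNE10, a basic helix-loop-helix factor gene, reversed in the other direction at 1.28 (SE 0.24, edgeR adjusted p = 0.0225), with 23.9, 26.2 and 20.7 CPM in T+ dwarf and 15.4, 14.8 and 10.8 CPM in T+ normal samples. Its Gen2 dwarf samples had 11.7 to 15.8 CPM and its Gen2 large samples 14.4 to 23.1 CPM. TBL19, of a family that acetylates cell wall polymers, MEE25, annotated with a nucleotide-binding fold, and MIPS3, a myo-inositol phosphate synthase gene, were picked after their values were seen, with interactions of 2.26, 1.27 and −1.11.

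AT3G24750 had the largest positive interaction among genes with a mean of at least 1 CPM, 5.2 (SE 0.96, edgeR adjusted p = 0.0225). It had 4.08, 1.95 and 2.55 CPM in T+ dwarf and 0.0125, 0.39 and 0.114 CPM in T+ normal samples, with T+ normal 1 below the limit that a count of 0 allows. Its Gen2 dwarf samples had 0.251 to 1.73 CPM and its Gen2 large samples 1.47 to 2.96 CPM. AT5G50360, with a von Willebrand factor A domain, had an interaction of 3.31, and its low group was again T+ normal (0.187, 0.39 and 0.433 CPM) against 2.72, 1.36 and 3.85 CPM in T+ dwarf samples. AT5G19120, an aspartyl protease gene, had 11.5, 13.4 and 7.3 CPM in T+ dwarf and 76.0, 47.3 and 98.2 CPM in T+ normal samples, with 12.1 to 28.2 CPM in Gen2 dwarf and 10.2 to 11.5 CPM in Gen2 large samples, and an interaction of −3.44. AT2G44240, AT4G10860 and AT4G19970 changed only within Gen2 by their own tests, with interactions of −4.99, −3.62 and −3.11. AT2G44240 had 2.04, 4.05, 16.7, 12.3 and 10.9 CPM in Gen2 dwarf and 0.72, 0.403 and 0.602 CPM in Gen2 large samples. Of the 142 genes, 41 overlap another annotated gene, RRTF1, WRKY33, BT5 and CYP77A4 among them, and strand is not marked by the library kit, so reads of such genes may be shared.

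In several lists no interaction was called although the counts of dwarf calls were unequal between backgrounds. Photosynthetic apparatus genes were lower in T+ dwarf than in T+ normal plants for 42 of 50 members, and lower in Gen2 dwarf than in Gen2 large plants for 5, with 48 interaction estimates below 0, a median of −0.47 and 0 calls. PSAN, a photosystem I subunit gene, had 415, 584 and 399 CPM in T+ dwarf and 1310, 1190 and 1130 CPM in T+ normal samples, against 735, 990, 839, 782 and 1110 CPM in Gen2 dwarf and 923, 1160 and 1130 CPM in Gen2 large samples. Its interaction was −1.11 (SE 0.3, edgeR adjusted p = 0.0968), so a difference was not shown. PETC, the Rieske protein of the cytochrome complex, had an interaction of −0.89. Chlorophyll synthesis showed the same picture, with 15 lower calls of 20 within T+, 2 within Gen2 and a median interaction of −0.52. Its smallest p belonged to AT1G74470, at −0.86 (SE 0.21, edgeR adjusted p = 0.0693), and HEMA1, glutamyl-tRNA reductase, stood at −1.14. Among 17 PsbP-domain, PsbQ-domain and MSH1 genes, 14 were lower within T+ and 5 within Gen2. PSBQ-2 and PnsL3, subunits of photosystem II and of the NDH complex, both had an interaction of −0.71 without a call. In dwarf T+ samples MSH1 averaged 15.7 ± 0.698 CPM, against 15.2 ± 3.4 CPM in normal ones (SD, n = 3 each). It averaged 14.7 ± 1.08 CPM in Gen2 dwarf (n = 5) and 15.6 ± 1.39 CPM in Gen2 large samples (n = 3), with an interaction of 0.14 (SE 0.2). PPD3 had an interaction of 0.17 (SE 0.24).

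Jasmonate genes had the same sign of effect in both backgrounds. In dwarf plants 28 of 33 were higher within T+ and 28 within Gen2, with medians of 1.14 and 1.2, 0 opposite signs and a median interaction of 0.04. AOC3, an allene oxide cyclase gene, and VSP2, a vegetative storage protein gene, had the smallest unadjusted p, with interactions of −0.89 (SE 0.31) and 2.27 (SE 0.8), and neither was called. Senescence genes were similar, with 10 higher and 1 lower call of 22 within T+, 14 higher within Gen2 and 0 opposite signs. HAI1, a protein phosphatase gene, and NYC1, a chlorophyll b reductase gene, had interactions of 1.63 and −0.91 in this list without a call. Abscisic acid, cold and drought genes had 15 higher calls of 31 within T+ and 3 higher and 1 lower within Gen2, with a median interaction of 0.83 and 25 estimates above 0. RD20, a caleosin gene, had 138, 169 and 182 CPM in T+ dwarf and 56.0, 43.1 and 46.4 CPM in T+ normal samples, against 165, 191, 121, 157 and 179 CPM in Gen2 dwarf and 91.2, 78.8 and 83.4 CPM in Gen2 large samples. It changed in the same direction in both backgrounds, and its interaction of 0.80 (SE 0.2, edgeR adjusted p = 0.0634) was not called. ABI2, a phosphatase that represses abscisic acid signalling, had an interaction of 0.78 (SE 0.2, edgeR adjusted p = 0.0755).

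Iron genes had 4 higher calls and 1 lower of 24 within T+ and none within Gen2. bHLH38, a factor of the iron-deficiency response, had 22.1, 35.7 and 60.3 CPM in T+ dwarf and 3.98, 1.29 and 1.71 CPM in T+ normal samples, against 1.95 to 3.88 CPM in Gen2 dwarf and 1.13 to 2.35 CPM in Gen2 large samples. WT samples spread from 0.452 to 19.3 CPM, and the interaction of 3.46 (SE 1.3, edgeR adjusted p = 0.26) was not called. AT1G74770, of the same list, had an interaction of 2.41 (SE 0.79). Root markers SHR and CASP1 stood at 0.86 and 2.11 without a call. The circadian clock list had 1 call of 27, RVE1, a clock output MYB factor gene, at −1.32 (SE 0.3, edgeR adjusted p = 0.0461) and in 3 of the 14 refits, and a median of 0.16. RVE1 had 2.52, 2.4 and 2.04 CPM in T+ dwarf and 4.43, 3.09 and 3.34 CPM in T+ normal samples, against 2.11 to 3.41 CPM in Gen2 dwarf and 1.59 to 1.85 CPM in Gen2 large samples. Light stress and heat shock, oxidative stress, expansin and xyloglucan, cell cycle, auxin, gibberellin and brassinosteroid, flowering, and DNA methylation lists had 0 calls and medians between −0.23 and 0.17. The smallest unadjusted p in these lists belonged to EXPA10, an expansin gene, at 1.06 (SE 0.25, edgeR adjusted p = 0.056). ELIP1, an early light-induced protein gene, had 10.8, 6.66 and 13.3 CPM in T+ dwarf and 1.07, 2.62 and 1.22 CPM in T+ normal samples, with an interaction of 2.42 (SE 0.66) that was not called. SIM, a cell cycle inhibitor gene, stood at 1.09, SPL9, a phase-change factor gene, at 0.87, and AGO3, an Argonaute gene, at −2.38, none of them called. Floral organ genes had a median interaction of 2.13 over the 11 of 19 that were tested, with 0 calls. Their median effect was 1.73 within T+, with 3 higher calls and 1 lower. Within Gen2 it was −0.42, with 0 higher calls and 1 lower. AP3 and LAP5 were called higher within T+ (3.92 and 3.67) but stood below 1 CPM in all samples. Together 30 of the 718 tested list genes had a called interaction (4.18%), beside 0.654% of all tested genes, and 112 of the 142 calls were in no list. The lists and members were chosen with earlier results of these data known, so the higher share in the lists is no evidence of enrichment.

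**Figure D4:**
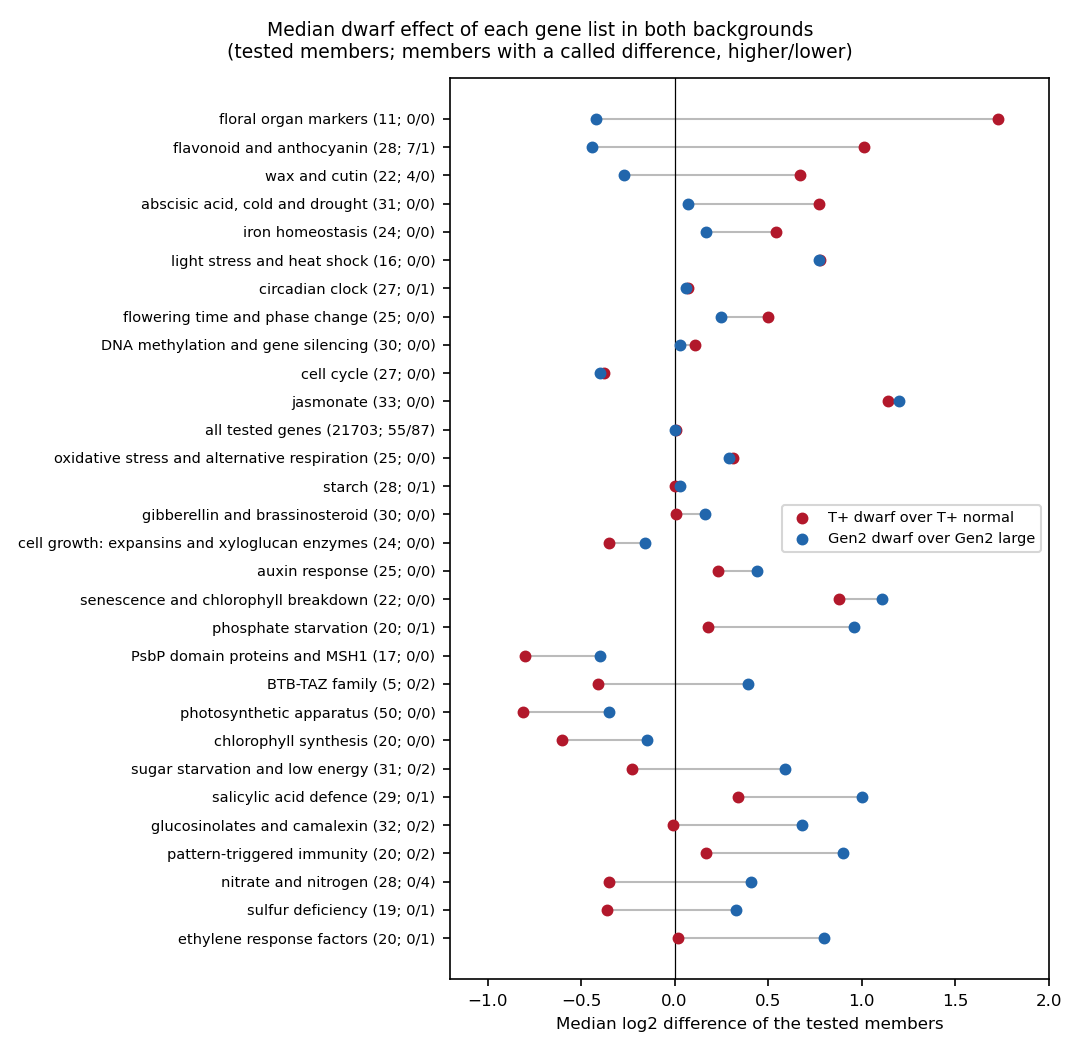
Medians of the log2 difference over the tested members of each list with at least 5 tested genes, for T+ dwarf over T+ normal (red) and Gen2 dwarf over Gen2 large (blue), with numbers of tested members and of called interactions in the labels. The widest gaps among lists with calls are those of flavonoid genes (1.01 and −0.44) and wax genes (0.67 and −0.27), and jasmonate genes lie together (1.14 and 1.2). Floral organ markers, a list without a called interaction, lie farther apart (1.73 and −0.42).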

How the data were processed

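RNA of aboveground tissue was sequenced as 100-bp pairs. The submitters' processing notes name Trim Galore (version 0.4.1), the aligner STAR (version 2.7.0a) and the build TAIR10. No source used here names the counting program, the annotation release or the strand setting. The deposited files hold raw read counts per locus from the authors, 1 file per sample. Gene names come from the TAIR10.1 RefSeq annotation. Here edgeR 4.0.16 (R 4.3.3, limma 3.58.1) fitted all 20 samples in 6 groups with TMM scaling, filterByExpr at a minimum count of 10 and robust quasi-likelihood tests, with Benjamini-Hochberg adjustment over 21703 genes and a threshold of 0.05. DESeq2 1.42.0 and other settings served as alternatives. Named genes are the 12 largest changes in each direction with a mean of at least 1 CPM, 10 reversed genes, up to 4 called members per list and 2 uncalled members of lists without a call, 82 in all; 12 more were chosen after their values were seen, as were TBL19, MEE25, MIPS3, AT3G18773 and AT3G07350. The members and lists were chosen with earlier results of these data known. A search of promoters for motifs was not run.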

Additional observations from a re-analysis of the deposited data

Results flagged for a closer look

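Each named gene with a called interaction is listed here because its dwarf effect differed between T+ and Gen2 in the test of that difference, edgeR's quasi-likelihood test with adjustment over all genes. Values are log2 interactions, the effect within T+ minus that within Gen2. Among cuticle and epidermis genes they were 2.87 for CER1, 2.83 for WSD1, 2.48 for MYB106, 2.09 for CYP77A4, 2.06 for KCS2, 1.90 for SHN3, 1.90 for HDG11, 1.71 for KCR2 and 1.16 for KCS3. Among anthocyanin genes they were 3.07 for UF3GT, 2.95 for TT7, 2.84 for DFR, 2.69 for AT4G14090, 2.56 for LDOX, 2.44 for GSTF12, 2.02 for PAP1 and −1.48 for MYBL2. Other genes above 0 had 5.2 for AT3G24750, 3.34 for AT1G03940, 3.31 for AT1G03495, 3.31 for AT5G50360, 2.78 for ABCB13, 2.58 for GLC, 1.28 for UNE10 and 1.27 for ESP.

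Nutrient and energy genes had −4.30 for AT2G20670, −4.17 for BT5, −3.81 for AT1G80440, −3.74 for BT2, −2.55 for GDH3, −2.47 for SULTR3;5, −2.16 for PTR3, −1.70 for AT1G04770, −1.46 for LBD38, −1.41 for NIA1, −1.25 for PHO1;H1 and −1.01 for BMY3. Defence, stress and glucosinolate genes had −6.11 for RRTF1, −4.38 for HSPRO2, −3.62 for OXS3, −2.29 for SZF1, −2.06 for WRKY40, −1.97 for SYP122, −1.60 for RAV1, −1.22 for WRKY33, −1.13 for IMD1, −1.05 for NPR3 and −0.94 for FMO GS-OX1. The remaining genes below 0 had −4.99 for AT2G44240, −3.93 for AT3G04640, −3.62 for AT4G10860, −3.44 for AT5G19120, −3.11 for AT4G19970, −2.36 for AT4G32480, −2.22 for AT2G24550, −2.20 for AT3G48640, −1.44 for AT5G44568 and −1.32 for RVE1.

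Among the 5 Gen2 dwarf samples, 1 sample lay far from the others for 6 of the 94 named genes, where chance gives about 1 in 20. Gen2 dwarf 4 was the highest for AT5G50360 (1.87 CPM) and the lowest for GLC (2.91 CPM). Gen2 dwarf 5 was the highest for RRTF1 (8.67 CPM) and bHLH38 (3.88 CPM). Gen2 dwarf 3 was the highest for AT5G19120 (28.2 CPM) and for CSD2 (337 CPM), a copper/zinc superoxide dismutase gene whose interaction of −0.94 was not called.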

How the results depend on the processing

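Leaving out 1 sample at a time gave 16 to 291 interaction calls, 1927 to 3309 calls within T+, 1186 to 3193 within Gen2 and 3 to 38 reversed genes. The lowest interaction count was reached without Gen2 large 2 and the highest without Gen2 dwarf 1. The fit with the replicate number as a block gave 93 interaction calls, 1356 calls within Gen2 and 17 reversed genes, and 70 of its calls were among the 142. The 18 correlations between same-numbered samples ran from −0.312 to 0.245, 6 of them over 0.1. A sample correlated best with its own number in 15 of 36 comparisons. With so few samples per group, these values cannot settle whether the numbers pair the samples. Gen2 dwarf samples 1 to 3 alone gave 35 interaction calls, 1578 within Gen2 and 6 reversed genes, with fewer samples in the fit. DESeq2 gave 646 interaction calls, which held all of the 142, and 58 reversed genes; the cause was not tested. RLE scaling (168), no filter on low counts (123), a minimum count of 50 (166), the 14 samples alone (166) and fits without robust estimation (151) stayed within 1.5 times of 142. The calls themselves changed more: only 108 of the 142 were called with the 14 samples alone, and 120 with no filter. The minimum count of 50 kept 141, and RLE scaling and the fit without robust estimation kept all 142. The sign of a named gene's interaction turned for PPD3 (−0.02 without T+ dwarf 1, and up to 0.43 without T+ dwarf 2) and MSH1 (−0.04 without T+ normal 3, and up to 0.29 without T+ normal 1), neither of which was called. Groups of 3 samples and counts of 0 that allow up to 0.0656 CPM limit what could be detected.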

Other observations

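A pair of gene families was looked at after their values were seen, as a description with no test. Of 14 annotated genes with a DUF506 product, 11 were tested and 3 had a called interaction, all below 0 (AT2G20670, AT3G07350 and AT4G32480), and these were called in each of the 14 refits. The family's median was −0.82 for the interaction, −0.39 within T+ and 0.61 within Gen2, with 8 interaction estimates below 0. Of 58 annotated genes with an HXXXD-type acyltransferase product, 47 were tested. A called interaction above 0 was found for 3 (AT1G03495, AT1G03940 and GLC) and a called one below 0 for 2. Estimates were above 0 for 23 and below 0 for 24, with a median of −0.04.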
